A study of Mus musculus with 8 samples.

Results

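The E2F transcription factors E2f1 to E2f8 were examined in cancers of the mouse gastric squamous-columnar junction (SCJ), the border between the squamous forestomach and the glandular stomach. Members were taken by gene symbol, and all 8 were found among the 23361 genes of the expression table. Poly(A)+ RNA was sequenced from 5 cancers with the genotype Trp53-/-Rb1-/- and from the SCJ of 3 wild type stomachs of age-paired mice. The cancers arose in animals with the knock in allele Lgr5-eGFP-IRES-CreERT2, floxed Trp53 and Rb1 and the Ai9 tdTomato reporter, so that tamoxifen deleted both genes in cells with an active Lgr5 promoter and in their progeny. The controls are labelled wild type. By the study's methods, control mice also received tamoxifen in the tumor induction experiments, whereas the controls of its survival curves did not. It is not stated whether the sequenced controls received it. Tumor borders were set by tdTomato signal, whereas the controls were whole dissected SCJ tissue, so stroma and epithelium were measured together in both groups. In bulk samples of this kind, fewer cells of a type and less RNA per cell cannot be told apart. Whether each sample came from a separate animal is not given by the labels, and p-values measure the spread between these samples only.

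E2F proteins control the passage from G1 to S phase. E2f1, E2f2 and E2f3 bind the retinoblastoma protein Rb1 and switch on genes of DNA replication once cyclin-dependent kinases release them from it. E2f4, E2f5 and E2f6 act mainly as repressors, E2f4 and E2f5 with the pocket proteins Rbl1 and Rbl2 and E2f6 with a Polycomb complex, while the atypical members E2f7 and E2f8 bind DNA without a DP partner and repress E2F targets late in S phase. Several of the genes, E2f1 among them, are themselves under E2F control, which is why the starts and promoters of the members are shown here.

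E2F sites were searched on both strands as the word TTCCCGC, as its variant TTCGCGC, as the variant TTGCCGC and as the word TTGGCGC, in RefSeq windows of 250 bases before and 50 after a start (GRCm38.p6). These words were found in 9.57% of all 32851 windows, and 6 of the 8 members had a window (E2f1, E2f2, E2f3, E2f6, E2f7 and E2f8). The window of E2f1 lay inside the gene, downstream of the start of the transcript used in the expression table, and held no such word. The first 30 bases of the GENCODE M21 transcript of E2f1 that begins just outside the locus used in the table are therefore shown together with 30 bases after the starts of E2f2 and E2f3, with the words in capitals.
E2f1 (chr2:154569863-154569892, minus strand): tttcGCGGCAAaaaggatTTGGCGCgtaaa
E2f2 (chr4:136172294-136172323, plus strand): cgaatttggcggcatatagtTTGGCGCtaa
E2f3 (chr13:29986034-29986063, minus strand): gagtttcgcgggaggaccTTGGCGCgtaaa
The E2f1 and E2f3 stretches both start at the first base of the transcript. The word TTGGCGC began at base 19 in E2f1 and in E2f3, both stretches ended in the same letters after it, and E2f1 held a further word from base 5. The starts used here for E2f2, E2f7 and E2f8 lie outside the loci of the expression table. E2f2 and E2f3 each had a second RefSeq window inside the gene without an E2F word, that of E2f2 with 3 CCAAT boxes and 1 CHR word, elements described next.

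Sequence before the start is shown for E2f7, the other member with a called difference, and for E2f3 and E2f8, whose differences were not called. Here capitals mark the E2F words, the CCAAT box (CCAAT or ATTGG) and the cell cycle homology region (CHR, TTTGAA or TTCAAA), an element bound by the MuvB complex.
E2f7 (chr10:110745189-110745438, plus strand): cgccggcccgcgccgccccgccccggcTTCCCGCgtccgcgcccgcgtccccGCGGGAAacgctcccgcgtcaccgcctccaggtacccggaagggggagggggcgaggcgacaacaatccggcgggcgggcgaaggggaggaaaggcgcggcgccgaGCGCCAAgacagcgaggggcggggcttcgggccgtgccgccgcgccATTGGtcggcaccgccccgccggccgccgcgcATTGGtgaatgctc
E2f3 (chr13:29986064-29986213, minus strand): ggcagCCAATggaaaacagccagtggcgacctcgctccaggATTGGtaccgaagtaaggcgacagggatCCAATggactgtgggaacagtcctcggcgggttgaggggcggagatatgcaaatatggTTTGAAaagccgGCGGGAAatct
E2f8 (chr7:48881597-48881746, minus strand): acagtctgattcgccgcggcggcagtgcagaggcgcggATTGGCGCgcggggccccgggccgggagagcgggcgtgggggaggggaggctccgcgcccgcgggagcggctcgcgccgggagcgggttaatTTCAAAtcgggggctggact
E2f7 held 3 E2F words, whose first bases lay at -223, -198 and -92 from its start, and 2 CCAAT boxes at -46 and -14. E2f3 held an E2F word at -11, a CHR at -23 and 3 CCAAT boxes. In E2f8 a single E2F word at -111 overlapped a CCAAT box at -112, and a CHR lay at -20. CCAAT boxes were found in 37.4% and CHR words in 17.9% of all windows. The window of E2f6 held none of these words. A match describes the letters in these windows and is not a measured binding site.

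Levels are given as deposited, in FPKM (fragments scaled by transcript length and by the fragments mapped) rounded to whole numbers, which allows levels to be compared between genes. The sum of FPKM was 887141 to 992550 in the controls and 403569 to 573858 in the cancers. The 10 most abundant genes held 39.3% to 44.3% of this sum in the controls and 11.1% to 19.6% in the cancers. Depth per library is unknown. The control tissue held the markers of parietal, pit and mucous, chief and squamous cells, apart from the chief cell gene Pgc, listed at 0 in controls 2 and 3 but at 28832 in control 1, so a listed 0 may be a failed estimate. Cancer 1 stood apart, with all 4 parietal and all 5 squamous markers at 0 and a lymphocyte marker sum of 160, where cancers 2 to 5 had 3 to 11 and the controls 4 to 5. All 6 neuroendocrine markers were higher in the cancers, with sums of 7581 to 16720 against 120 to 182 in the controls. Macrophage marker sums were 88 to 226 in the cancers and 25 to 34 in the controls, and endothelial marker sums 12 to 38 and 6 to 9, both without overlap, and their part in the results was not tested.

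The targeted genes were looked at before the family. Rb1, the pocket protein that restrains the activator E2Fs, was at 4, 4, 5, 6 and 4 FPKM in cancers 1 to 5 and at 9, 9 and 10 FPKM in the controls. The groups did not overlap, and the log2 fold change was -0.90 (SE 0.16, adjusted p = 0.0059, limma). With libraries scaled to a common sum (TPM), it was -0.05 and was not called (adjusted p = 0.84, limma), against a median of 0.81 over all genes on that scale. Trp53 was at 12, 22, 12, 30 and 12 FPKM in the cancers and 16, 17 and 19 FPKM in the controls, overlapping in range, with a log2 fold change of -0.08 (adjusted p = 0.87, limma), which was 0.86 and called on the TPM scale (adjusted p = 0.020, limma). The values cover whole genes, so they do not show loss of the floxed exons and do not check the genotype labels. Lpar6 and Mir687 lie within the Rb1 locus of the table.

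Of the 8 members, 2 rose in the cancers (E2f1 and E2f7), none fell, and 6 did not pass the threshold, an adjusted p under 0.05 in a limma fit over 14357 genes. Among all genes tested, 16.2% were called higher, 18.3% lower and 34.5% in either direction. The 2 of 8 members called in either direction were thus no more than the share of all genes. The median log2 fold change was 0.20 over the members and -0.04 over all genes, and without cancer 1, the sample with lymphocyte markers, the same 2 members were called. On the TPM scale 6 members were called higher, on a scale on which 50.0% of all genes were called higher, 3.68% lower and 53.7% in either direction.

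**Figure D1:**
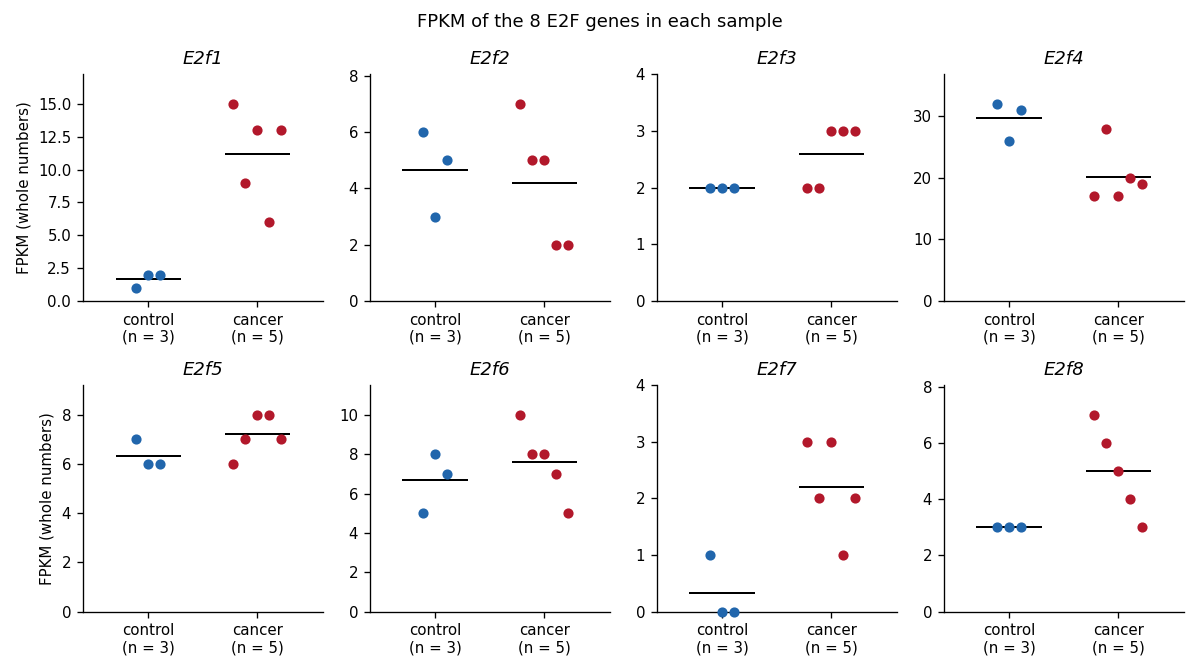
FPKM (y axis, linear, from 0) of each E2F gene in the 3 controls (blue points) and the 5 cancers (red points, cancer 1 to 5 from left to right), with a line at each group mean. E2f1 was at 6 to 15 FPKM in the cancers and at 1 to 2 FPKM in the controls, and the other 7 genes overlapped between groups.

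Among the activators, E2f1 was at 15, 9, 13, 6 and 13 FPKM in cancers 1 to 5 and at 1, 2 and 2 FPKM in the controls. Every cancer lay above every control, and cancers 4 and 2 were the lowest of the cancers. The mean was 11.2 ± 3.63 FPKM (SD, n = 5) in the cancers and 1.67 ± 0.577 FPKM (SD, n = 3) in the controls. These means give a ratio of 6.72, and if the values were rounded to the nearest whole number the unrounded ratio lay between 4.94 and 10. On the log2(FPKM + 1) scale the difference was 2.16 (SE 0.30, adjusted p = 0.0028, limma), above that of 96.4% of the genes tested. The exact permutation test gave p = 0.0179, the smallest value that the 56 splits of 8 samples allow. E2f1 was the only member without overlap between groups, against 14.4% of all genes tested with every cancer higher and 19.8% with every cancer lower. It passed the threshold in all 15 alternatives, and relative to the median of all genes its log2 difference was 2.2 as deposited and 2.29 on the TPM scale.

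Cancers 2 and 4, with the least E2f1, had the highest summed pit and mucous, parietal and chief cell markers of the cancers, but not the highest squamous markers in both. The pit and mucous marker sum (6 genes, among them Tff1, Gkn1 and Gkn2) was 72677 in cancer 2 and 46224 in cancer 4, against 691, 5226 and 15908 in cancers 1, 3 and 5 and 146212 to 214340 in the controls. The parietal marker sum (4 genes, among them the proton pump genes Atp4a and Atp4b) was 991 and 2199 in cancers 2 and 4, 0, 176 and 110 in cancers 1, 3 and 5, and 4071 to 7486 in the controls. The chief cell marker sum was highest among the cancers in cancers 2 and 4, at 5075 and 7309, against 3462 to 31484 in the controls. Both lay above controls 2 and 3, where Pgc was listed at 0, and Pgc alone was at 4546 and 6762 FPKM in these 2 cancers. The single marker Bhlha15 was lowest in cancers 2 and 4, at 3 and 2 FPKM against 4 to 9 FPKM in the other cancers. The squamous marker sum was 0, 16, 303, 1588 and 476 in cancers 1 to 5, low in cancer 2 and highest in cancer 4. The part of these cells in the E2f1 values was not tested.

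E2f2 was at 7, 5, 5, 2 and 2 FPKM in the cancers and at 6, 3 and 5 FPKM in the controls. The ranges overlapped, and the log2 fold change was -0.20, with a 95% interval from -1.09 to 0.70 (adjusted p = 0.71, limma), and was positive on the TPM scale. E2f3 was at 2 or 3 FPKM in every cancer and at 2 FPKM in every control, with a log2 fold change of 0.25 and a 95% interval from -0.12 to 0.62 (adjusted p = 0.25, limma). With values this small, a step of 1 FPKM is the finest difference that the rounded table can show for E2f3. The activator rise was thus carried by E2f1, since the summed share of E2f2 and E2f3 among the members other than E2f1 was 13.8% ± 2.81 (SD, n = 5) in the cancers and 12.6% ± 1.97 (SD, n = 3) in the controls, with overlap.

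Among the repressors, E2f4, the most abundant E2F of quiescent and differentiated cells, was at 17, 28, 17, 20 and 19 FPKM in the cancers and at 32, 26 and 31 FPKM in the controls. Cancer 2 was above control 2, and the other cancers lay below every control. The log2 fold change was -0.55 (SE 0.18) and did not pass the threshold (adjusted p = 0.051, limma), with an exact permutation p of 0.0714. Without cancer 2 it was -0.67 and passed (adjusted p = 0.0087, limma), it also passed when only genes with a mean of at least 5 FPKM were tested (adjusted p = 0.049, limma), and on the TPM scale its sign was positive, at 0.39 (adjusted p = 0.066, limma), which is below the median of all genes on that scale by 0.42.

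E2f5 was at 6 to 8 FPKM in the cancers and 6 to 7 FPKM in the controls (log2 fold change 0.16, 95% interval -0.15 to 0.47, adjusted p = 0.38, limma). Its locus in the table also spans 1810022K09Rik, so its value is uncertain. E2f6, which represses germline and cell cycle genes without binding pocket proteins, was at 10, 8, 8, 7 and 5 FPKM in the cancers and at 5, 8 and 7 FPKM in the controls (log2 fold change 0.16, 95% interval -0.36 to 0.68, adjusted p = 0.60, limma). The groups overlapped for both genes, with the highest E2f6 value in cancer 1.

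Of the atypical members, E2f7 was at 3, 2, 3, 1 and 2 FPKM in the cancers, at 1 FPKM in control 1 and listed at 0 in controls 2 and 3. Cancer 4 and control 1 shared the value 1, and the other cancers lay above every control. The difference on the log2(FPKM + 1) scale was 1.30 (SE 0.32, adjusted p = 0.019, limma), with an exact permutation p of 0.0357, and E2f7 passed the filter on low values mainly through the cancers. The call was lost without control 2 (adjusted p = 0.078, limma), without control 3 (adjusted p = 0.076, limma) and with quantile normalization (adjusted p = 0.064, limma). Rounding to the nearest whole number alone would allow a ratio of means anywhere from 2.04 to 16.2.

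E2f8 was at 7, 6, 5, 4 and 3 FPKM in cancers 1 to 5 and at 3 FPKM in every control. Only cancer 5 did not exceed the controls. The log2 fold change was 0.54 (SE 0.23, adjusted p = 0.10, limma), with an exact permutation p of 0.107, and passed the threshold without cancer 5 (0.68, adjusted p = 0.033, limma). E2f1, E2f2, E2f6 and E2f8 were each highest in cancer 1, the library with lymphocyte markers at 160. The part of lymphocytes in these values was not tested.

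**Figure D2:**
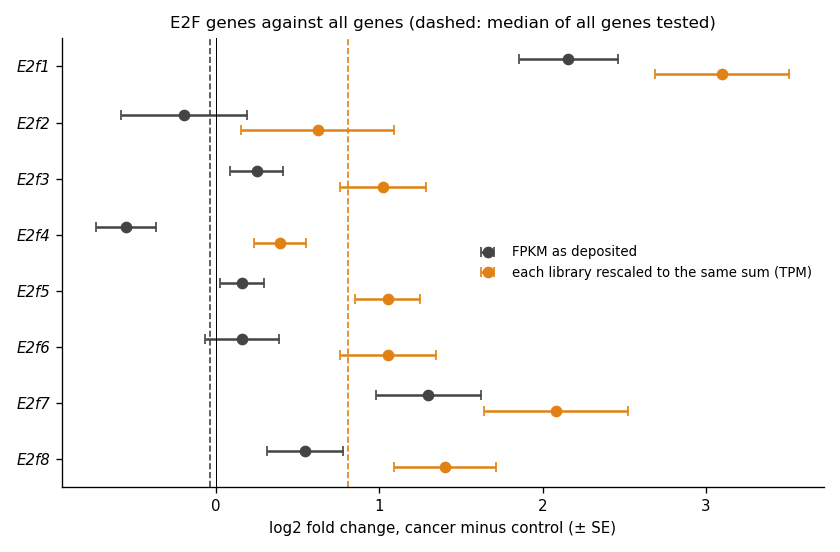
Log2 fold change (x axis, cancer minus control, points with bars of 1 SE) of each E2F gene in the limma fit of the deposited FPKM (grey) and with libraries scaled to a common sum (TPM, orange), with dashed lines at the median of all 14357 genes in each fit (-0.04 and 0.81). E2f1 (2.16 and 3.10) and E2f7 (1.30 and 2.09) lay to the right of the median on both scales, and E2f4 (-0.55 and 0.39) to its left.

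The make-up of the family was described within each sample, where no scaling between libraries enters. E2f1 held 22.4%, 13.4%, 21%, 11.8% and 24.1% of the summed FPKM of the 8 genes in cancers 1 to 5 and 1.75%, 4% and 3.57% in the controls. E2f4 held 25.4%, 41.8%, 27.4%, 39.2% and 35.2% in the cancers but 56.1%, 52.0% and 55.4% of control family FPKM. Neither share overlapped between groups. The ratio of E2f1 to E2f4 was 0.591 ± 0.265 (SD, n = 5) in the cancers and 0.0576 ± 0.0236 (SD, n = 3) in the controls.

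By class, the activators held 29.7% ± 6.48 (SD, n = 5) of family FPKM in the cancers and 15.3% ± 1.12 (SD, n = 3) in the controls. The repressors held 58.5% ± 7.90 and 78.6% ± 1.40, and the atypical members 11.8% ± 2.32 and 6.13% ± 0.837. None of these 3 shares overlapped between groups. The summed FPKM of the family was 51 to 67 in the cancers and 50 to 57 in the controls, with overlap. Unlike the shares, this sum depends on the scaling between libraries. As a percent of all FPKM in the sample, the family held 0.0166, 0.0117, 0.0141, 0.00911 and 0.0121 in cancers 1 to 5. These lay above the 0.00564 to 0.00596 of the controls. On this common-sum (TPM) scale the median log2 fold change over all genes was itself 0.81, and 50.0% of all genes were called higher.

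**Figure D3:**
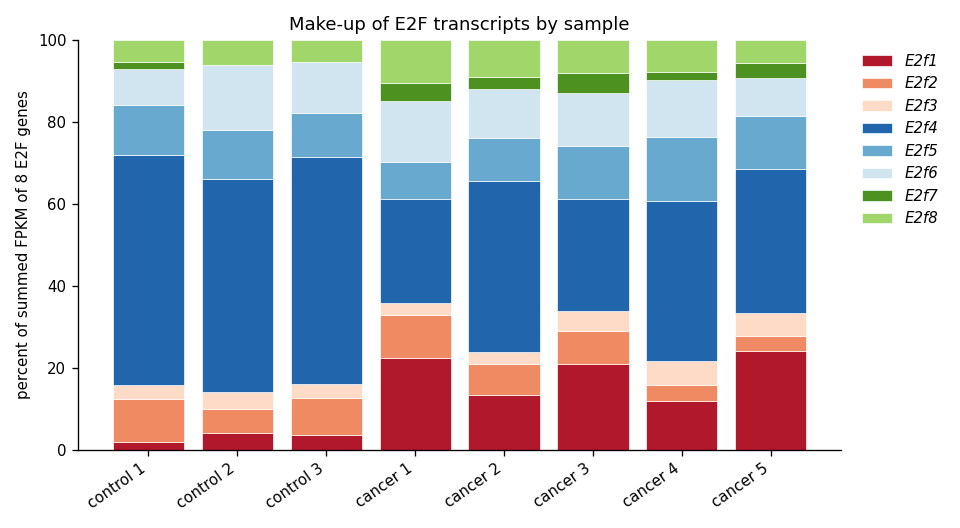
Share of each E2F gene (stacked bars, percent of the summed FPKM of the 8 genes, y axis from 0 to 100) in each of the 3 controls and 5 cancers. E2f1 (dark red) held 11.8% to 24.1% in the cancers and 1.75% to 4% in the controls, and E2f4 (dark blue) 25.4% to 41.8% and 52.0% to 56.1%.

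The order of levels also differed. In the controls E2f4 stood highest (29.7 ± 3.21 FPKM, SD, n = 3) without overlap with the next gene, followed by E2f6, E2f5, E2f2, E2f8, E2f3, E2f1 and E2f7. Among these neighbours only E2f8 and E2f3 also did not overlap. In the cancers E2f4 again stood highest (20.2 ± 4.55 FPKM, SD, n = 5) and did not overlap with E2f1, which took rank 2 in place of rank 7. From E2f1 downwards, through E2f6, E2f5, E2f8, E2f2, E2f3 and E2f7, each neighbouring pair overlapped in range.

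The genes most like each called member were found by the mean absolute difference of log2(FPKM + 1) over the 8 samples, each gene centred on its own mean. For E2f1 they were Chst12 (0.06), a carbohydrate sulfotransferase gene, Gaa (0.11), which encodes lysosomal acid alpha-glucosidase, and Selm (0.11), a selenoprotein gene. Chst12 was at 14, 8, 13, 6 and 12 FPKM in the cancers and at 1, 2 and 2 FPKM in the controls, within 1 FPKM of E2f1 in every sample. For E2f7 they were Ccnb1 (0.12), Tacc3 (0.14) and Cdk1 (0.15), genes of mitosis: cyclin B1, a spindle protein and the mitotic kinase.

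E2f1 was set against genes of dividing cells within each sample. Mki67, the Ki-67 gene, was at 25, 13, 20, 11 and 11 FPKM in the cancers and at 10, 7 and 7 FPKM in the controls, with a log2 fold change of 0.86 that did not pass the threshold (adjusted p = 0.057, limma). Top2a, the topoisomerase of mitotic cells, was at 15 to 44 FPKM and 7 to 18 FPKM, with 1.13 (adjusted p = 0.056, limma). Both were called with a mean of at least 5 FPKM (adjusted p = 0.046 and 0.045, limma), on the TPM scale and without cancer 4, and Top2a also with quantile normalization. E2f1 per Mki67 was 0.600, 0.692, 0.650, 0.545 and 1.18 in the cancers but 0.10, 0.286 and 0.286 for controls 1 to 3. E2f1 per Top2a was 0.341 to 0.591 and 0.0556 to 0.286. E2f1 per Cdk1 was 0.409 to 0.813 and 0.10 to 0.40. For these ratios each cancer lay above the highest control, narrowly so for Cdk1, and with E2f1 at 1 or 2 whole FPKM in the controls, rounding could close the gaps for Top2a and Cdk1.

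Pocket proteins and DP partners decide what an E2F does. Tfdp1, the main DP partner, was at 73, 50, 61, 42 and 53 FPKM in the cancers and at 33, 28 and 26 FPKM in the controls, without overlap. It rose by 0.90 on the log2 scale (SE 0.19, adjusted p = 0.012, limma). Tfdp2, the other DP gene, was at 7, 6, 7, 7 and 10 FPKM in the cancers and at 10, 14 and 12 FPKM in the controls, where cancer 5 met control 1.

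Tfdp2 fell by 0.64 on the log2 scale (SE 0.18, adjusted p = 0.031, limma), a sign that turned to 0.26 on the TPM scale (adjusted p = 0.44, limma). Its call was lost with quantile normalization and without cancer 1, cancer 3, control 2 or control 3 (adjusted p = 0.055 to 0.12, limma). Rbl1 (p107), at 5 to 10 and 3 to 5 FPKM, and Rbl2 (p130), at 5 to 9 and 8 to 11 FPKM, did not pass the threshold (log2 fold change 0.62, adjusted p = 0.089, and -0.47, adjusted p = 0.12, limma). The Rbl2 locus overlaps Aktip. Of the 5 genes in this group, 1 was higher, 2 were lower and 2 were not called. Their median was -0.47, against -0.04 over all genes, of which 16.2% were called higher and 18.3% lower. On the TPM scale their median was 0.41, against 0.81 over all genes, with 2 called higher and 0 lower.

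Among 15 G1 cyclins, kinases and inhibitors, 4 were higher, 3 were lower and 8 were not called (median -0.13, against -0.04 over all genes). Over all genes tested, 16.2% were called higher, 18.3% lower and 34.5% in either direction. All 4 that rose were inhibitor genes, namely Cdkn2a, Cdkn2c, Cdkn2d and Cdkn1b, and those that fell were cyclin D2 (Ccnd2), p21 (Cdkn1a) and p15 (Cdkn2b). The number called lower was 1 without cancer 3 or any single control. On the TPM scale 9 genes were called higher and 1 lower, where 50.0% of all genes were called higher and 3.68% lower. Cdkn2a, which encodes p16Ink4a and p19Arf, was at 65, 58, 85, 29 and 62 FPKM in the cancers and listed at 0 in every control. It thus passed the filter on low values only through the cancers, where it was high. Cdkn2c (p18) was at 35 to 88 FPKM in the cancers and 10 to 12 FPKM in the controls (log2 fold change 2.23, SE 0.31, adjusted p = 0.0027, limma), and Cdkn2d (p19Ink4d) at 13 to 27 and 3 to 5 FPKM (2.10, SE 0.28, adjusted p = 0.0027, limma).

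The cyclin E genes, themselves E2F targets, were at 11, 9, 7, 4 and 3 FPKM (Ccne1) and 8, 1, 6, 2 and 3 FPKM (Ccne2) in the cancers, with controls at 2 to 3 and 0 to 1 FPKM. Neither passed the threshold (adjusted p = 0.052 and 0.064, limma). They were singled out after their values were seen.

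Of 6 ubiquitin ligase genes that act in E2F turnover, 2 were higher and 4 were not called (median 0.54), about the 34.5% called among all genes. Cks1b, the cofactor of the Skp2 ligase, was at 23 to 47 FPKM in the cancers and 12 to 18 FPKM in the controls (log2 fold change 1.32, SE 0.25, adjusted p = 0.0079, limma). Skp2 itself was at 2 to 5 and 1 to 2 FPKM (0.90, adjusted p = 0.031, limma), a call lost with quantile normalization and without cancer 1, cancer 3, control 2 or control 3 (adjusted p = 0.055 to 0.17, limma). Ccnf, which encodes the cyclin F that targets activator E2Fs for destruction, was at 3 to 9 and 2 to 4 FPKM and was not called (0.77, adjusted p = 0.088, limma).

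Of 30 E2F target genes of S phase entry, 17 were higher, 1 was lower and 12 were not called, with a median log2 fold change of 0.87 against -0.04 over all genes, of which 16.2% were called higher. The helicase genes Mcm2, Mcm3, Mcm4, Mcm5, Mcm6 and Mcm7 were all higher, whereas Gins1, of the same replicative helicase, was not called (log2 fold change -0.22, adjusted p = 0.68, limma). Mcm2 was at 40, 23, 29, 18 and 23 FPKM in the cancers and at 7, 9 and 8 FPKM in the controls (log2 fold change 1.57, SE 0.25, adjusted p = 0.0040, limma). Mcm3 was at 20 to 32 and 9 to 11 FPKM (1.24, SE 0.19, adjusted p = 0.0038, limma) and Mcm4 at 15 to 23 and 6 to 8 FPKM (1.26, SE 0.20, adjusted p = 0.0041, limma).

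The other targets that rose included Cdt1, Cdc45, Pcna, Pola1, Pole, Prim1, Rrm1, Chek1 and Dnmt1, and Cdc25a, a phosphatase of cyclin-dependent kinases, was the 1 that fell. E2f1 per Mcm2 was 0.333 to 0.565 in the cancers and 0.143 to 0.250 in the controls, a gap that rounding could also close. Of the 30 targets 23 had a RefSeq window, and 17 of these held an E2F word, against 10.9% of all 27025 genes with a window. The number of targets called higher was 17 also without cancer 1, but it was 11 without control 1, 9 without control 2 and 7 without control 3.

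Of 10 E2F target genes of apoptosis 8 were tested, with 1 higher, 2 lower and 5 not called (median -0.46), close to the 34.5% called among all genes. Bbc3, the gene of the death protein Puma, was at 2 to 3 FPKM in the cancers and 1 to 2 FPKM in the controls, a log2 fold change of 0.64 (adjusted p = 0.045, limma). Casp9, the initiator caspase of the mitochondrial pathway, was at 5 to 7 and 8 to 10 FPKM, without overlap (-0.56, adjusted p = 0.024, limma). On the TPM scale the sign of Casp9 turned, to 0.31, and it was not called. The calls of Bbc3 and Casp9 were lost with quantile normalization (adjusted p = 0.44 and 0.066, limma) and without control 1 or control 2. That of Casp9 was also lost without control 3, and that of Bbc3 without cancer 1, 3 or 5 and without the filter on low values.

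**Figure D4:**
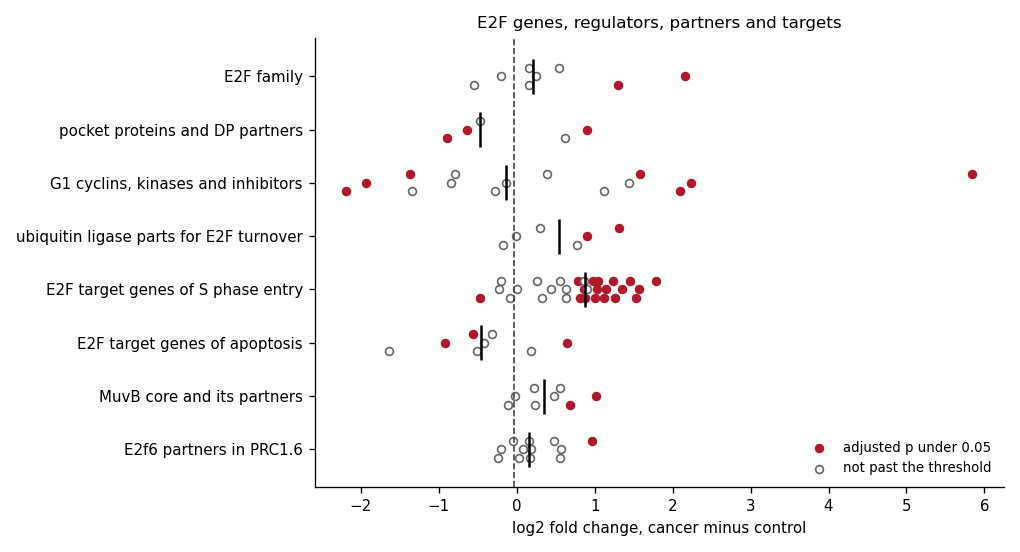
Log2 fold change (x axis, cancer minus control) of each tested gene of the E2F family and of 7 groups of regulators, partners and targets, as filled red points where the adjusted p was under 0.05 and as open points otherwise, with a bar at each group's median and a dashed line at the median of all genes (-0.04); vertical offsets within a group only separate points. The targets of S phase entry had the highest median (0.87), and the point farthest to the right is Cdkn2a, listed at 0 in the controls, whose position depends on the added 1 FPKM.

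Of 8 genes of the MuvB core and its partners, which work with E2f4 and later with Foxm1 at cell cycle genes, 2 were higher and 6 were not called (median 0.36), no more than the 34.5% of all genes called in either direction. Rbbp4, a histone-binding subunit, was at 34 to 52 FPKM in the cancers and 26 to 28 FPKM in the controls (log2 fold change 0.68, SE 0.15, adjusted p = 0.013, limma). Foxm1, the mitotic transcription factor, was at 3 to 9 FPKM and at 2 FPKM in every control (1.02, SE 0.28, adjusted p = 0.028, limma). The Foxm1 call was lost with quantile normalization (adjusted p = 0.13, limma) and without cancer 3 or any control (0.065 to 0.086), and that of Rbbp4 without control 2 (adjusted p = 0.055, limma). Lin52 was at 5 to 11 and 4 to 5 FPKM and was not called (0.55, adjusted p = 0.13, limma).

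Of 12 genes of the Polycomb complex PRC1.6 in which E2f6 works, only Cbx3, a heterochromatin protein gene, was called, and 11 were not. This was below the 34.5% called among all genes, and the median was 0.16 against -0.04 over all genes. Cbx3 was at 71 to 101 FPKM in the cancers and 37 to 49 FPKM in the controls (log2 fold change 0.97, SE 0.17, adjusted p = 0.0060, limma). Hdac2 was at 32 to 46 and 19 to 31 FPKM (0.56, adjusted p = 0.066, limma), and Rybp at 11 to 28 and 10 to 13 FPKM (0.56, adjusted p = 0.18, limma). The germline genes that E2f6 silences, Stag3, Smc1b, Slc25a31, Tuba3a and Tuba3b, were listed at 0 in every sample except Tuba3a, at 1 FPKM in cancer 2, and none could be tested. Of 6 genes of multiciliated cells, in which E2f4 and E2f5 have a separate role, 4 were in the table. Gmnc, Ccno and Foxj1 were listed at 0 throughout, and Myb, at 0 to 2 FPKM in the cancers and 1 FPKM in the controls, was not called.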

How the data were processed

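RNA was extracted from 5 SCJ cancers and 3 control SCJ tissues, and directional poly(A)+ libraries were sequenced. Per the labels' processing notes the authors used cutadapt 1.8, TopHat2 2.0.13 and Cuffnorm 2.2.1 with mm10. The normalization option of Cuffnorm is not given in the sources used here. The deposited values are FPKM that the authors rounded (100% were whole), and they were handled as a score, since they are no counts of reads. Depth is unknown, so no counting intervals are given.

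The 14357 genes that reached 1 FPKM in 3 or more samples entered a limma 3.58.1 fit of log2(FPKM + 1) (R 4.3.3, eBayes with a trend), and p-values were adjusted by Benjamini-Hochberg over these genes, with a threshold of 0.05. Fold changes on this scale understate those of low genes. Each member also had an exact permutation test, two-sided, over 56 splits, which was not adjusted for the 8 members. Tables and sequences were handled in Python 3.11.15. The fit was tested on simulated data.

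Members and gene lists were chosen with earlier results of these data known. Of 148 list and marker entries 144 were in the table. Genes named were the members, the pocket protein and DP genes, the 3 genes with the lowest adjusted p of each other list, the 3 genes most like each called member (mean of at least 5 FPKM), Mki67, Top2a and Trp53, apart from a gene that is not reported here. Further genes of the lists, such as the other called S phase and G1 genes, Gins1, Ccne1 and Ccne2, and single cell type markers were named after their values were seen. Ratios of E2f1 to Mki67, Top2a, Cdk1 and Mcm2, and the span due to rounding, were added after the values were seen. Loci are mm10, counted from 1. Alternatives were a pseudocount of 0.1, 2 other filters on low values, TPM, quantile normalization, eBayes without trend, the replicate number as a block and leaving out each sample.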

Additional observations from a re-analysis of the deposited data

Results flagged for a closer look

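Of 81 sets of values tested within the 5 cancers, 6 had a sample whose gap to its nearest neighbour, as a share of the whole range, was above Dixon's critical value of 0.71, where chance would give about 4.05 (1 in 20). E2f4 was at 28 FPKM in cancer 2 against 17 to 20 FPKM in the other cancers (gap share 0.727). Tfdp2 was at 10 FPKM in cancer 5 against 6 to 7 FPKM (0.75). Of the germline genes silenced by E2f6, Tuba3a was at 1 FPKM in cancer 2 and all were listed at 0 in the other cancers (1). The neuroendocrine marker sum was 7581 in cancer 2 against 14359 to 16720 (0.742), and the smooth muscle marker sum was 851 in cancer 2 against 21 to 242 (0.734). The lymphocyte marker sum was 160 in cancer 1 against 3 to 11 (0.949), with the B cell genes Ms4a1 and Cd79a at 26 and 68 FPKM.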

How the results depend on the processing

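E2f1 kept its direction and its call in all 15 alternatives (log2 fold change 1.96 to 2.34 with a sample left out), and its share of the family exceeded that of the controls by 14 to 17.1 percentage points, that of the activators by 12.9 to 16.4. With quantile normalization E2f7 was at 1.03 and not called. The other members not called as deposited moved as follows. On the TPM scale, on which the median of all genes was 0.81, values were 0.62 for E2f2, 1.02 for E2f3, 0.39 for E2f4, 1.05 for E2f5, 1.05 for E2f6 and 1.40 for E2f8; the limma fit called E2f3, E2f5, E2f6 and E2f8, and the exact permutation test, on the same differences, put these 4 and E2f4 under 0.05. E2f3 was at -0.18 with quantile normalization, E2f4 at -0.55 and called with a mean of at least 5 FPKM. With a sample left out the ranges were -0.43 to -0.02 for E2f2, 0.21 to 0.31 for E2f3, -0.67 to -0.50 for E2f4, 0.12 to 0.22 for E2f5, -0.01 to 0.28 for E2f6 (negative, -0.0081, without control 1), 1.13 to 1.63 for E2f7 and 0.43 to 0.68 for E2f8.

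Over all genes 4948 were called, 47.0% of them higher, against 7704, 93.2% of them higher, on the TPM scale, and 2490 to 5252 with a sample left out. Members called were 2 as deposited, 6 on the TPM scale, 1 with quantile normalization and 1 to 3 with a sample left out. Filters, pseudocount and prior left the list counts within 1.5 times, except 1 turnover gene, 1 MuvB gene and 0 apoptosis genes called higher with a mean of at least 5 FPKM, 0 apoptosis genes higher and 1 lower without a filter, and 1 lower with a pseudocount of 0.1 or no trend. On the TPM scale the calls higher and lower were 2 and 0 for pocket and DP genes, 9 and 1 for G1 genes, 6 and 0 for turnover, 25 and 0 for S phase targets, 2 and 0 for apoptosis, 7 and 0 for MuvB and 10 and 0 for PRC1.6. With quantile normalization 1 pocket or DP gene and 0 S phase targets were lower, 0 apoptosis genes were called, and 1 MuvB and 2 PRC1.6 genes were higher. With a sample left out, counts lower were 1 to 2 for pocket and DP genes, 1 to 4 for G1, 0 to 1 for S phase targets and 0 to 2 for apoptosis, and counts higher were 4 to 6 for G1, 1 to 3 for turnover, 7 to 20 for S phase targets, 0 to 1 for apoptosis and 0 to 2 for MuvB. Signs also turned for genes outside the family that were not called: on the TPM scale Rbl2 (0.41), and Myb with a pseudocount of 0.1 (-0.32) or quantile normalization (-0.36) or with a sample left out (-0.10 to 0.29), as did Trp53 (0.12 with quantile normalization, 0.86 and called on the TPM scale, from -0.29 without cancer 4 to 0.027 without cancer 1, 3 or 5), and for genes called lower as deposited, Tfdp2 (0.26) and Casp9 (0.31) on the TPM scale. The causes were not tested beyond the shift of the median.

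Cancers and controls 1 to 3 share replicate numbers, and the labels do not state that these numbers pair the samples. Deviations of same-numbered samples correlated at -0.02, -0.19 and -0.10. With so few samples, and with matched tissues not bound to deviate alike, these correlations cannot decide whether samples were paired. With the replicate number as a block, 1534 genes and 1 member (E2f1) were called, E2f7 was at 1.53 and not called, E2f2 was at 0.26, and calls were 6 higher and 0 lower among S phase targets, 1 lower among pocket and DP genes, 1 lower among G1 genes, and 0 among apoptosis, MuvB and PRC1.6 genes. Of the genes named in the comparisons by rule, Tfdp2, Skp2, Mcm2, Mcm4, Casp9, Bbc3, Rbbp4, Foxm1, Cbx3, Chst12 and Tacc3 were no longer called with the block, and Ccnf was.

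Whole-number FPKM limit what can be seen of E2f3 and E2f7, which never exceed 3 FPKM, and 5 against 3 samples limit the exact test to 0.0179.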
